A study of Mus musculus with 12 samples.

Results

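The genes described here are 34 genes of the p53 pathway, taken by symbol from a list. They are Trp53, which encodes p53, and 33 genes known as its targets or as parts of the response it directs. Cdkn1a, the best known p53 target, was left out of the list. All 34 were among the 55453 symbols in the count files, and 33 were among the 14757 genes that passed the filter on low counts. The exception was Pmaip1. By role, 3 of the 34 genes were p53 and its feedback genes, and 6 act in cell cycle arrest and growth control. A further 3 are death receptors, and 11 were grouped under mitochondrial apoptosis and survival. The others were 5 genes of DNA repair and nucleotide supply and 6 of metabolism, stress and autophagy.

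The p53 protein is a transcription factor that is stabilised, mainly at the protein level, when DNA is broken. It then switches on genes that halt the cell cycle, repair DNA, limit metabolism or trigger cell death, and it switches on Mdm2, the ubiquitin ligase that marks p53 itself for destruction. Doxorubicin (DOX), an anthracycline used against cancer, traps topoisomerase II on DNA, and in the heart p53 is known as one of the routes through which the drug injures cardiomyocytes.

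Messenger RNA was sequenced from mouse hearts in 4 groups of 3 libraries each. The groups were PDE10A wild-type (WT) mice with vehicle, WT mice with DOX, PDE10A knockout (KO) mice with vehicle and KO mice with DOX, all of strain C57BL/6J. PDE10A is a phosphodiesterase that breaks down cAMP and cGMP. Per the labels' protocols, mice of either sex could be used, the drug was 1 intraperitoneal bolus of 15 mg/kg, and the treatment ran for 7 days. The protocols also describe injections of the PDE10A inhibitor TP-10 or of its solvent, a mixture of DMSO and cyclodextrin, but no library used here was labelled with TP-10. The sources used here give neither the age of the mice nor how the knockout was made. Animals are named by the numbers in the titles. Values per library are listed in the order of mice 1, 2 and 3 (WT vehicle), 21, 22 and 24 (WT DOX), veh_3393, veh_3394 and veh_3395 (KO vehicle) and 18, 19 and 20 (KO DOX). Unless stated otherwise, a level is in CPM, the count scaled to the library total, adjusted by TMM (trimmed mean of M-values) factors.

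Pde10a, the targeted gene, did not read as lost in the libraries labelled KO. It read 3.38, 1.00 and 1.86 CPM with vehicle and 2.7, 2.08 and 1.79 CPM with DOX in WT hearts, against 9.31, 11.9 and 9.13 CPM and 8.27, 8.49 and 9.09 CPM in KO hearts. All 6 values labelled KO exceeded all 6 labelled WT, so "KO" stands throughout for the libraries labelled KO and every direction between genotypes rests on those labels. Library totals ran from 23846398 to 32921876 counts. WT vehicle mouse 2 and WT DOX mouse 21 stood apart from their groups. By chi-square per gene, mouse 2 lay at 149 and 89.4 from the other WT vehicle libraries, and mouse 21 lay at 67.4 and 69.2 from the other WT DOX libraries but at 22.8 from WT vehicle mouse 1 and 16.8 from KO DOX mouse 20. For the p53 pathway list and for all genes, counts of genes called for DOX in WT hearts are given with and without each of these libraries. Fold changes of single genes without them are not given. The share of mitochondrially encoded genes was 19.5% in WT vehicle mouse 2 and 24.4% to 33.6% elsewhere. KO DOX mouse 18 and KO vehicle mouse veh_3394 were high in atrial transcripts, with 1590 and 2140 CPM summed over 5 markers.

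The summed level of 10 cardiomyocyte markers was 80500 to 95100 CPM in WT vehicle hearts and 61000 to 77100 CPM in WT DOX hearts, so the libraries matched their label as heart. It was 74400 to 83900 CPM in KO vehicle and 72500 to 80600 CPM in KO DOX hearts. Over 10 endothelial markers it was 974 to 1080 CPM in WT vehicle and 651 to 800 CPM in WT DOX hearts, and 662 to 755 CPM in KO vehicle and 757 to 849 CPM in KO DOX hearts. KO vehicle hearts thus all lay below WT vehicle hearts in endothelial markers. Over 7 neutrophil markers it was 3.03 to 4.36 CPM in WT vehicle hearts, where Ly6g was at 0 in all 3 libraries, and 9.56, 38.3 and 29.5 CPM in WT DOX mice 21, 22 and 24. It was 7.47 to 11.2 CPM in KO vehicle and 5.23 to 6.24 CPM in KO DOX hearts. The 6 erythroid markers summed to 50.9 to 172 CPM in WT vehicle hearts and 0.144 to 0.395 CPM in WT DOX hearts, with Hba-a2, Hbb-bt and Slc4a1 at 0. They summed to 46.5 to 253 CPM in KO vehicle hearts and to 0.709, 214 and 60.9 CPM in KO DOX mice 18, 19 and 20. In bulk tissue, fewer cells of a type and less RNA per cell cannot be told apart. The part of these shifts in the results below was not tested.

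Scaled for exon length, the 34 genes covered a wide range of levels in the heart. Ccng1, which encodes cyclin G1 and is a p53 target that recruits a phosphatase to Mdm2, was the highest at 241 CPM per kb of exon averaged over the 12 libraries. Perp, a membrane protein of cell junctions that p53 induces, followed at 85.3 CPM per kb and Sesn1, a sestrin that restrains the growth kinase mTORC1, at 38.6 CPM per kb. The median gene stood at 3.23 CPM per kb. Eda2r, Tnfrsf10b, Pidd1, Pvt1 and Pmaip1 stood at 0.573, 0.436, 0.268, 0.131 and 0.0941 CPM per kb. Pmaip1, which encodes the BH3-only death protein NOXA, had between 3 and 14 counts in each library and was not tested. Its mean level was 0.303 CPM in WT vehicle, 0.373 in WT DOX, 0.212 in KO vehicle and 0.141 in KO DOX hearts, all near the limit of detection at this depth.

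**Figure D1:**
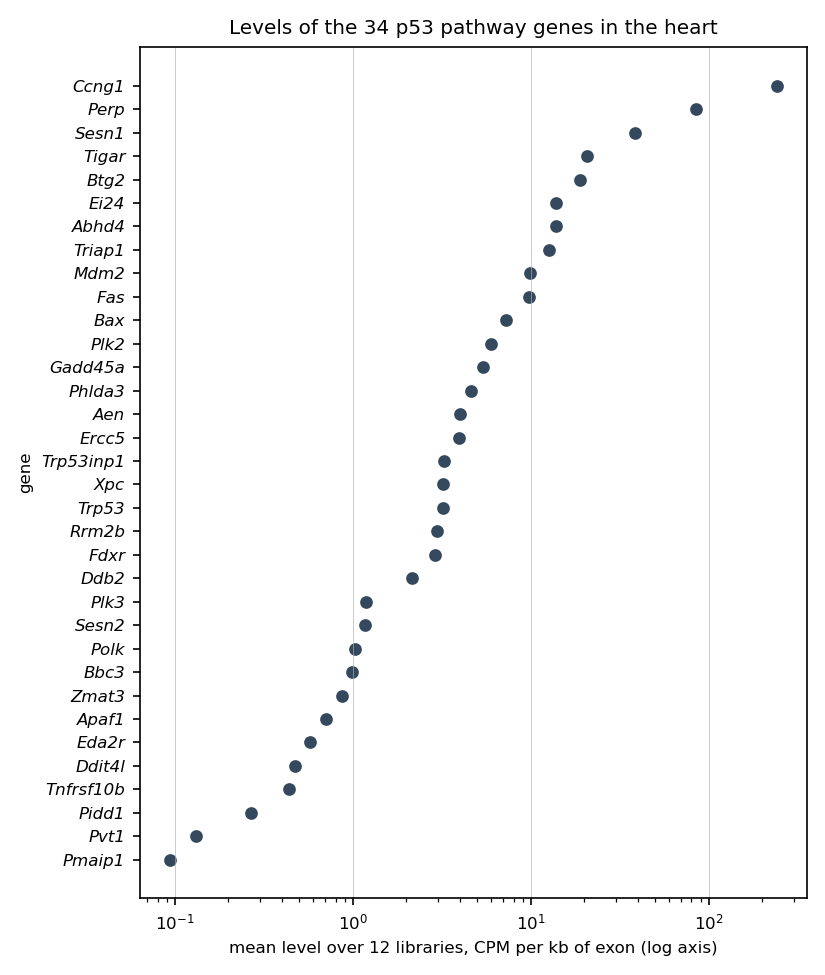
Each point is the mean level of 1 of the 34 genes over 12 libraries, in CPM per kb of exon on a log axis. Ccng1 stands at 241 and Pmaip1 at 0.0941 CPM per kb.

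Promoters of genes on which the results turn are shown first where a sequence was at hand, because p53 acts on its targets by binding DNA. RefSeq windows (GRCm38.p6) from 250 bases before to 50 bases after a transcription start were at hand for 25 of the 34 genes, as 31 windows. Trp53inp1, Rrm2b and Perp, 3 of the 8 genes called for DOX in WT hearts, had none. A p53 response element was searched for on both strands as 2 half-sites of 10 bases with a spacer of at most 13 bases and at most 2 mismatches outside the 4-base cores. It was found in 2 of the 31 windows (6.45%), those of Bax and Sesn1, and in 2.12% of the 32841 windows of all genes. A single half-site with no mismatch was found in 12 of the 31 windows (38.7%) against 8.36% of all windows. These windows belonged to 11 of the 25 genes, namely Abhd4, Aen, Bax, Ccng1, Ddit4l, Ei24, Gadd45a, Mdm2, Polk, Sesn1 and Trp53. The 2 windows of Aen overlap and share 1 half-site, which is counted in both. Single half-sites also lie inside full elements, so the counts overlap. The hexamer GGGCGG was in 83.9% of these windows and 35.7% of all windows, CCAAT in 51.6% and 37.4%, and TATAAA in 9.68% and 13.6%. The cAMP response sequence TGACGTCA was in 6.45% (Btg2 and Plk2) against 1.79%. A match is a description of letters and not a site of binding, and p53 also binds in introns and farther upstream.

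The 250 bases before the start are printed for 5 genes that DOX moved in WT hearts, for Mdm2 and Ccng1 as the feedback genes, and for Bax, the other gene with a full element. Capitals mark 1 p53 response element (Sesn1), 2 overlapping elements that share a half-site (Bax) or a half-site with no mismatch (Gadd45a, Mdm2, Ccng1). Eda2r (chrX:97377210-97377459, minus strand), Sesn2 (chr4:132510457-132510706, minus strand) and Tigar (chr6:127109553-127109802, minus strand) had neither. The Sesn1 window is that of its second start (chr10:41887189-41887438, plus strand). The others lie on the minus strand at chr6:67037408-67037657 (Gadd45a), chr10:117710759-117711008 (Mdm2), chr11:40755287-40755536 (Ccng1) and chr7:45466899-45467148 (Bax).
Eda2r: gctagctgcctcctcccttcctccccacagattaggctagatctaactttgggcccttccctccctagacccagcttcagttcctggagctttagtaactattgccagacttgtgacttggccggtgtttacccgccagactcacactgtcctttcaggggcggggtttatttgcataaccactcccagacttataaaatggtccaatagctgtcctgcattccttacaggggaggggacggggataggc
Sesn1: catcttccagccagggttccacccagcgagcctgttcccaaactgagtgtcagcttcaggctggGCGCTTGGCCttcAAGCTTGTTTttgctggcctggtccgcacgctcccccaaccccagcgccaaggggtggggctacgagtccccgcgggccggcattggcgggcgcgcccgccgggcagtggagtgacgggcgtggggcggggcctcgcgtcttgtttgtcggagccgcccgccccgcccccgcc
Sesn2: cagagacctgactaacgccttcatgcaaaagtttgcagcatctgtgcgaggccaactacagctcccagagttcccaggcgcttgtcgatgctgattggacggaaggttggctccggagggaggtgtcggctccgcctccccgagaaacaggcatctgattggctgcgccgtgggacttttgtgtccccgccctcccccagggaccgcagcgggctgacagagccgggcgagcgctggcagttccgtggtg
Tigar: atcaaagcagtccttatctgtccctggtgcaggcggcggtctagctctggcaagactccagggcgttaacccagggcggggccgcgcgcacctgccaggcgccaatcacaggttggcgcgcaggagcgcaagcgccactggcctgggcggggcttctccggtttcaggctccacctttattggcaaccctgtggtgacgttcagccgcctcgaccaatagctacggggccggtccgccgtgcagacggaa
Gadd45a: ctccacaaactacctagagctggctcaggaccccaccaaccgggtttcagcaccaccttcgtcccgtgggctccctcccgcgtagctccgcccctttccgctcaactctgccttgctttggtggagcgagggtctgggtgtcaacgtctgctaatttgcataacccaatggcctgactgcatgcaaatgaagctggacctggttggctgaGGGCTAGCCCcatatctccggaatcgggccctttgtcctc
Mdm2: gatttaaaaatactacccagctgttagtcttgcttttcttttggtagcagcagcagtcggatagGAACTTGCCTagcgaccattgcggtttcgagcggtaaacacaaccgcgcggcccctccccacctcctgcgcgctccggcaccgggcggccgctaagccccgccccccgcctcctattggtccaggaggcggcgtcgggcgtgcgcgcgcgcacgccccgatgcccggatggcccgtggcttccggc
Ccng1: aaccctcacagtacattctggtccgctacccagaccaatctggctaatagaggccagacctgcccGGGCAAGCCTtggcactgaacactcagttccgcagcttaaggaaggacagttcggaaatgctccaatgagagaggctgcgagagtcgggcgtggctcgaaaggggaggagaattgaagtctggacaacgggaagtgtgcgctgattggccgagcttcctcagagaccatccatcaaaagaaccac
Bax: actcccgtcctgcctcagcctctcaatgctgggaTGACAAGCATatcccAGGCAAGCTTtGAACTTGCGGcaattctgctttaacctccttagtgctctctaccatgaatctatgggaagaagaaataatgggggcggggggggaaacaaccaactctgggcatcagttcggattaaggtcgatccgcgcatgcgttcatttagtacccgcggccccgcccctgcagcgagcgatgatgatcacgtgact

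DOX moved 8 of the 33 tested genes in WT hearts, 7 up and 1 down. Those that rose were Eda2r, Trp53inp1, Perp, Sesn2, Rrm2b, Sesn1 and Tigar, by 1.37-fold to 3.60-fold, and Gadd45a fell to 0.624 of its vehicle level. Calls here and below are those of edgeR's quasi-likelihood test with a Benjamini-Hochberg adjusted p below 0.05 over all 14757 genes. The 7 that rose were 21.2% of the 33, against 9.39% of all genes tested, and the 1 that fell was 3.03% against 9.20%. In both directions together 24.2% of the 33 passed, against 18.6% of all genes. The median log2 fold change of the 33 was 0.24 (0.16 without WT DOX mouse 22), against 0.00 over all genes. Of the 33, 22 (66.7%) were above 0, against 50% of all genes.

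The stress and metabolic effectors held 4 of the 7 genes that rose. Of this role, 4 of 6 genes were called higher, against 9.39% of all genes, and the median log2 fold change was 0.53. The genes and lists were chosen with earlier results of these data known, so shares by role, here and below, are descriptions only. Trp53inp1 encodes a stress protein that p53 induces and that acts in autophagy and cell death. It read 13.2, 12.1 and 10.4 CPM in WT vehicle hearts and 30.8, 74.6 and 23.5 CPM in WT DOX hearts. All 3 DOX hearts lay above all 3 vehicle hearts, with mouse 22 far above the others. The log2 fold change of Trp53inp1 was 1.85 (SE 0.36, adjusted p = 0.0138), and 1.19 (adjusted p = 0.0393) without mouse 22.

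Sesn1 and Sesn2 encode sestrins, stress proteins that restrain mTORC1. Sesn1 read 114, 102 and 112 CPM with vehicle and 125, 189 and 201 CPM with DOX (log2 0.65, SE 0.19, adjusted p = 0.0344). Sesn2, which read 3.03, 3.45 and 3.41 CPM with vehicle, read 4.35, 5.68 and 5.13 CPM with DOX (log2 0.61, SE 0.15, adjusted p = 0.0215). Neither gene's groups overlapped, although mouse 21 stood only a little above the vehicle hearts for Sesn1. Tigar encodes a phosphatase that lowers glycolysis and feeds the pentose phosphate pathway. It read 68.4, 57.8 and 63.4 CPM with vehicle and 73.8, 77.4 and 109 CPM with DOX (log2 0.46, SE 0.14, adjusted p = 0.0443). Tigar's groups did not overlap either, and mouse 24 was the highest. The other 2 genes of this role were lower without passing the test. Ddit4l, an mTORC1 inhibitor, had a log2 fold change of -0.99 (adjusted p = 0.0812), and Fdxr, a mitochondrial electron carrier enzyme, one of -0.37 (adjusted p = 0.0913).

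Among the death receptors, 1 of 3 was called higher, against 9.39% of all genes. Eda2r encodes a receptor of the tumour necrosis factor family that binds ectodysplasin A2. It read 2.09, 2.35 and 2.26 CPM in WT vehicle hearts and 5.75, 4.81 and 4.55 CPM in WT DOX hearts. The groups lay far apart, with every DOX heart at about the same height. Its log2 fold change was 1.17 (SE 0.20, adjusted p = 0.00941), with the smallest adjusted p among the 33 genes. Fas, the receptor for Fas ligand, and Tnfrsf10b, the mouse receptor for TRAIL, had log2 fold changes of 0.22 (adjusted p = 0.465) and 0.25 (adjusted p = 0.409).

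In DNA repair and nucleotide supply, 1 of 5 genes was called higher, against 9.39% of all genes. Rrm2b encodes the ribonucleotide reductase subunit that p53 induces to supply nucleotides for repair. It read 26.2, 14.3 and 19.4 CPM with vehicle and 29.2, 32.5 and 30.3 CPM with DOX (log2 0.62, SE 0.17, adjusted p = 0.0278). The DOX hearts were close together, and the spread lay among the vehicle hearts, of which mouse 2 was the lowest. The 4 others had log2 fold changes above 0 that did not pass. Xpc, which recognises damage in nucleotide excision repair, had 0.40 (adjusted p = 0.075) and Ercc5, an endonuclease of the same pathway, had 0.26 (adjusted p = 0.0664). Polk, a DNA polymerase that copies past lesions, had 0.33 (adjusted p = 0.252) and Ddb2, another damage sensor, had 0.19 (adjusted p = 0.474).

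The role of mitochondrial apoptosis and survival was the largest. It held 1 call among 10 tested genes, near the 9.39% of all genes called higher, with a median log2 fold change of -0.02. The role also takes in genes whose proteins act elsewhere in the cell, such as Perp at cell junctions. Perp read 137, 150 and 135 CPM with vehicle and 179, 200 and 277 CPM with DOX (log2 0.64, SE 0.14, adjusted p = 0.0174). All DOX hearts lay above all vehicle hearts, and mouse 24 was the highest. Bax, which permeabilises the outer mitochondrial membrane, read 9.04, 19.2 and 14.7 CPM with vehicle and 12.7, 11.4 and 10.7 CPM with DOX (log2 -0.31, SE 0.21, adjusted p = 0.289). Its DOX values lay inside the vehicle range. Bbc3, which encodes the BH3-only protein PUMA, averaged 2.57 ± 0.711 CPM (SD, n = 3) with vehicle and 2.36 ± 0.318 with DOX. Its log2 fold change was -0.13 (adjusted p = 0.805).

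The other 7 genes of the mitochondrial role had log2 fold changes from -0.55 (Pidd1, a scaffold for caspase-2, adjusted p = 0.177) to 0.34 (Aen, a nuclease that cuts DNA in dying cells, adjusted p = 0.0657). Apaf1, the core of the apoptosome, had 0.14 (adjusted p = 0.623), and Ei24, a membrane protein of the endoplasmic reticulum, had 0.00 (SE 0.08, adjusted p = 0.997). Triap1, which protects against apoptosis, had -0.45 (adjusted p = 0.0685), Phlda3, which blocks the survival kinase Akt, had -0.04 (adjusted p = 0.93), and Abhd4, a lipid hydrolase, had 0.24 (adjusted p = 0.205).

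Among the genes of arrest and growth control, Gadd45a was the 1 call of 6. It was lower, as were 9.2% of all genes. Gadd45a encodes a small stress protein that binds cell cycle and repair factors. It read 10.2, 11.1 and 9.13 CPM with vehicle and 6.11, 6.33 and 6.54 CPM with DOX. The groups did not overlap and the DOX hearts were nearly equal (log2 -0.68, SE 0.17, adjusted p = 0.0234). Btg2, an antiproliferative gene, read 37.3, 62.1 and 60.1 CPM with vehicle and 52.3, 169 and 44.8 CPM with DOX. Only mouse 22 stood out, and the log2 fold change of Btg2 of 0.74 (adjusted p = 0.206) was -0.13 without it. Zmat3, an RNA-binding protein that p53 induces, had 0.33 (adjusted p = 0.0718). The polo-like kinases Plk2 and Plk3 had 0.28 (adjusted p = 0.276) and -0.12 (adjusted p = 0.72), and the long non-coding RNA Pvt1 had 0.62 (adjusted p = 0.208).

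None of the 3 feedback genes was called in WT hearts, against 18.6% of all genes, although Trp53 and Mdm2 had unadjusted p below 0.05. DESeq2 called neither. Both were called by limma-voom, which called a larger share of all genes than edgeR (given below under processing). Trp53 transcript read 14.6, 14.4 and 14.5 CPM with vehicle and 13.0, 10.6 and 12.4 CPM with DOX (log2 -0.27, SE 0.11, adjusted p = 0.0871). Its DOX hearts all lay below its vehicle hearts. Mdm2 read 48.1, 41.8 and 46.1 CPM with vehicle and 50.4, 52.8 and 55.2 CPM with DOX (log2 0.22, SE 0.08, adjusted p = 0.0844). Its DOX hearts all lay above its vehicle hearts, by little. Ccng1 had a log2 fold change of -0.14 (SE 0.13, adjusted p = 0.436).

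Groups did not overlap for 11 of the 33 genes with DOX higher (33.3%, against 16.8% of all genes) and for 5 with DOX lower (15.2%, against 15.8%). Besides the 7 called higher, the 11 were Aen, Ercc5, Mdm2 and Zmat3. Besides Gadd45a, the 5 were Ddit4l, Pidd1, Triap1 and Trp53. For comparison, Cdkn1a, the p21 gene outside the list, rose from 44.5 ± 12.3 to 129 ± 47.2 CPM (SD, n = 3), a log2 fold change of 1.53 (adjusted p = 0.0155). Among the 33 genes, only Trp53inp1 had a larger fitted log2 fold change than that of Cdkn1a.

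The count of 8 rested on single libraries. It was 12 without WT DOX mouse 21, with 25.6% of all genes called. It was 13 without WT vehicle mouse 1, 3 without WT vehicle mouse 2 or mouse 3, and 2 without WT DOX mouse 22 or mouse 24, with 27.8%, 3.43%, 4.92%, 1.23% and 1.22% of all genes called in these other 5 fits. Fitted on the 2 WT groups alone it was 0, with 0.141% of all genes called. Without TMM scaling 9 of the 33 genes were higher and 1 lower, while the share of higher genes among all calls moved from 50.5% to 66.2%. Eda2r and Trp53inp1 stayed called in each of the 12 fits that left out 1 library, Perp and Gadd45a in 9, Sesn2 and Rrm2b in 8, Sesn1 in 7 and Tigar in 3.

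**Figure D2:**
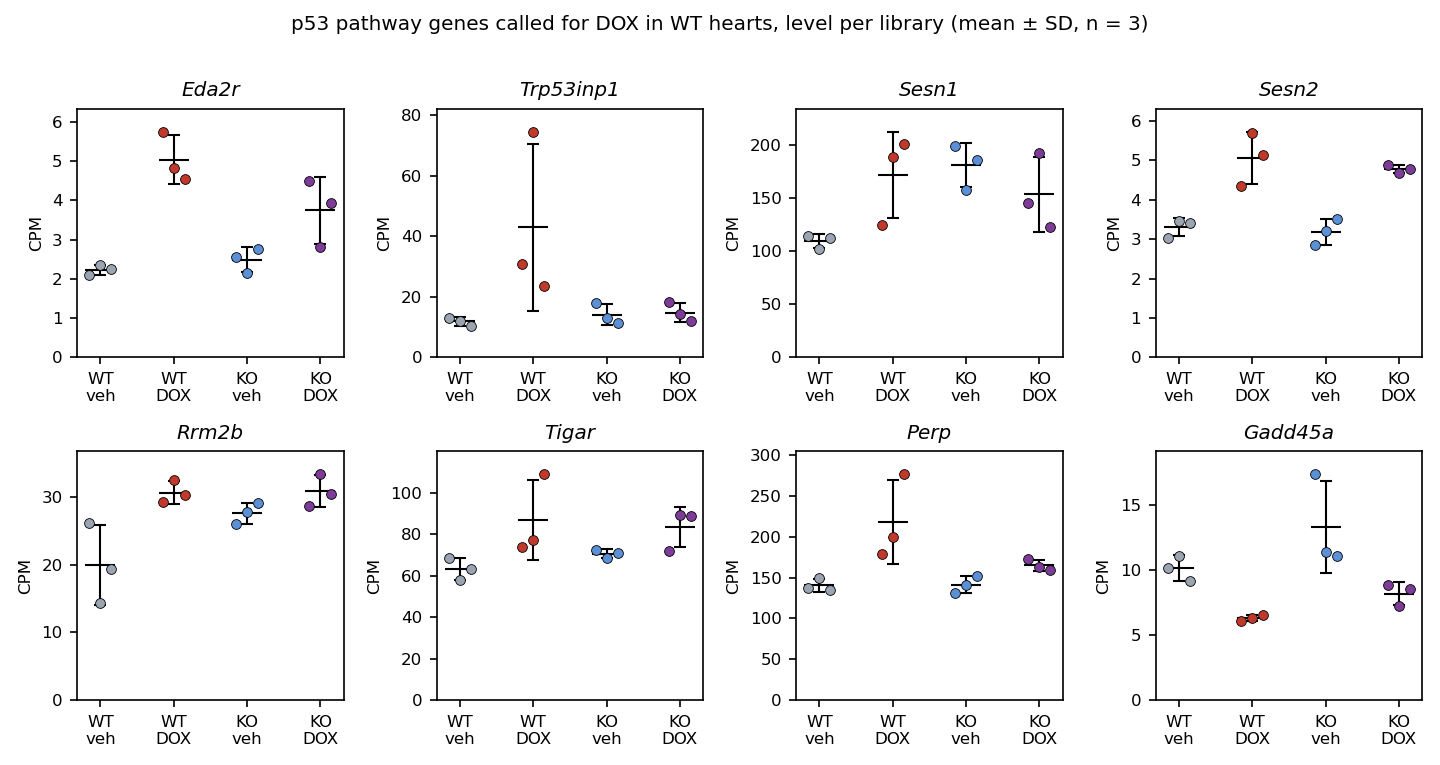
Levels in CPM of the 8 genes called for DOX in WT hearts, with 1 point per library, 1 colour per group and the mean ± SD of each group (n = 3). For Eda2r all WT DOX hearts (4.55 to 5.75 CPM) lie above all WT vehicle hearts (2.09 to 2.35 CPM), and for Gadd45a they lie below.

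In KO hearts, none of the 33 genes was called for DOX (0 of 33, against 0.0136% of all genes). At an unadjusted p below 0.05, 6 of the 33 were reached, against 5.35% of all genes. DESeq2 called 1 of the genes, Gadd45a, and limma-voom called 0. The share of all genes that DESeq2 called is given below under processing. The KO vehicle and KO DOX hearts read 17.4, 11.4, 11.1 and 8.82, 7.21, 8.55 CPM for Gadd45a (log2 -0.70, SE 0.17, unadjusted p = 0.00122, adjusted p = 0.334). Sesn2 read 2.85, 3.21 and 3.50 CPM with vehicle and 4.88, 4.68 and 4.78 CPM with DOX (log2 0.59, SE 0.15, unadjusted p = 0.00198, adjusted p = 0.405). In both genes the groups were apart, and the log2 fold changes in WT hearts had been -0.68 and 0.61.

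Eda2r read 2.55, 2.15 and 2.77 CPM with vehicle and 4.49, 2.82 and 3.93 CPM with DOX in KO hearts (log2 0.59, SE 0.20, adjusted p = 0.664). Mouse 19 stood only just above the highest vehicle heart. Plk2 had a log2 fold change of 0.52 (SE 0.18, adjusted p = 0.706), Mdm2 had 0.19 (SE 0.08, adjusted p = 0.911) and Fas had -0.48 (SE 0.21, adjusted p = 0.88). Groups did not overlap for 7 genes with DOX higher (21.2%, against 8.27% of all genes), namely Aen, Eda2r, Mdm2, Perp, Plk2, Sesn2 and Xpc. They did not overlap for 2 with DOX lower (6.06%, against 8.05%), Fas and Gadd45a. The median log2 fold change of the 33 genes was 0.15, against 0.01 over all genes. It was 0.06 without KO vehicle mouse veh_3393, 0.08 without KO DOX mouse 18 and 0.10 to 0.15 without each other library. Between KO vehicle and KO DOX hearts the endothelial markers did not overlap (662 to 755 against 757 to 849 CPM), and their part in these values was not tested.

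Trp53inp1 and Sesn1 showed no such shift in KO hearts. Trp53inp1 read 18.1, 12.9 and 11.4 CPM with vehicle and 18.2, 14.4 and 11.9 CPM with DOX, so the groups overlapped fully (log2 0.07, SE 0.35, adjusted p = 0.997). Sesn1 read 199, 158 and 186 CPM with vehicle and 145, 192 and 123 CPM with DOX (log2 -0.24, SE 0.19, adjusted p = 0.997). Its KO vehicle hearts, at 158 to 199 CPM, overlapped with the WT DOX hearts and lay above the WT vehicle hearts. Rrm2b read 26, 27.8 and 29.1 CPM and 28.7, 33.4 and 30.5 CPM in these groups, and Tigar read 72.6, 68.7 and 70.7 CPM and 72.1, 89.1 and 88.9 CPM. Perp read 131, 141 and 152 CPM with vehicle and 173, 163 and 160 CPM with DOX (log2 0.22, SE 0.14, adjusted p = 0.997). Cdkn1a averaged 17.3 ± 6.52 and 26.4 ± 5.97 CPM (SD, n = 3) in KO hearts (log2 0.61, adjusted p = 0.997).

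**Figure D3:**
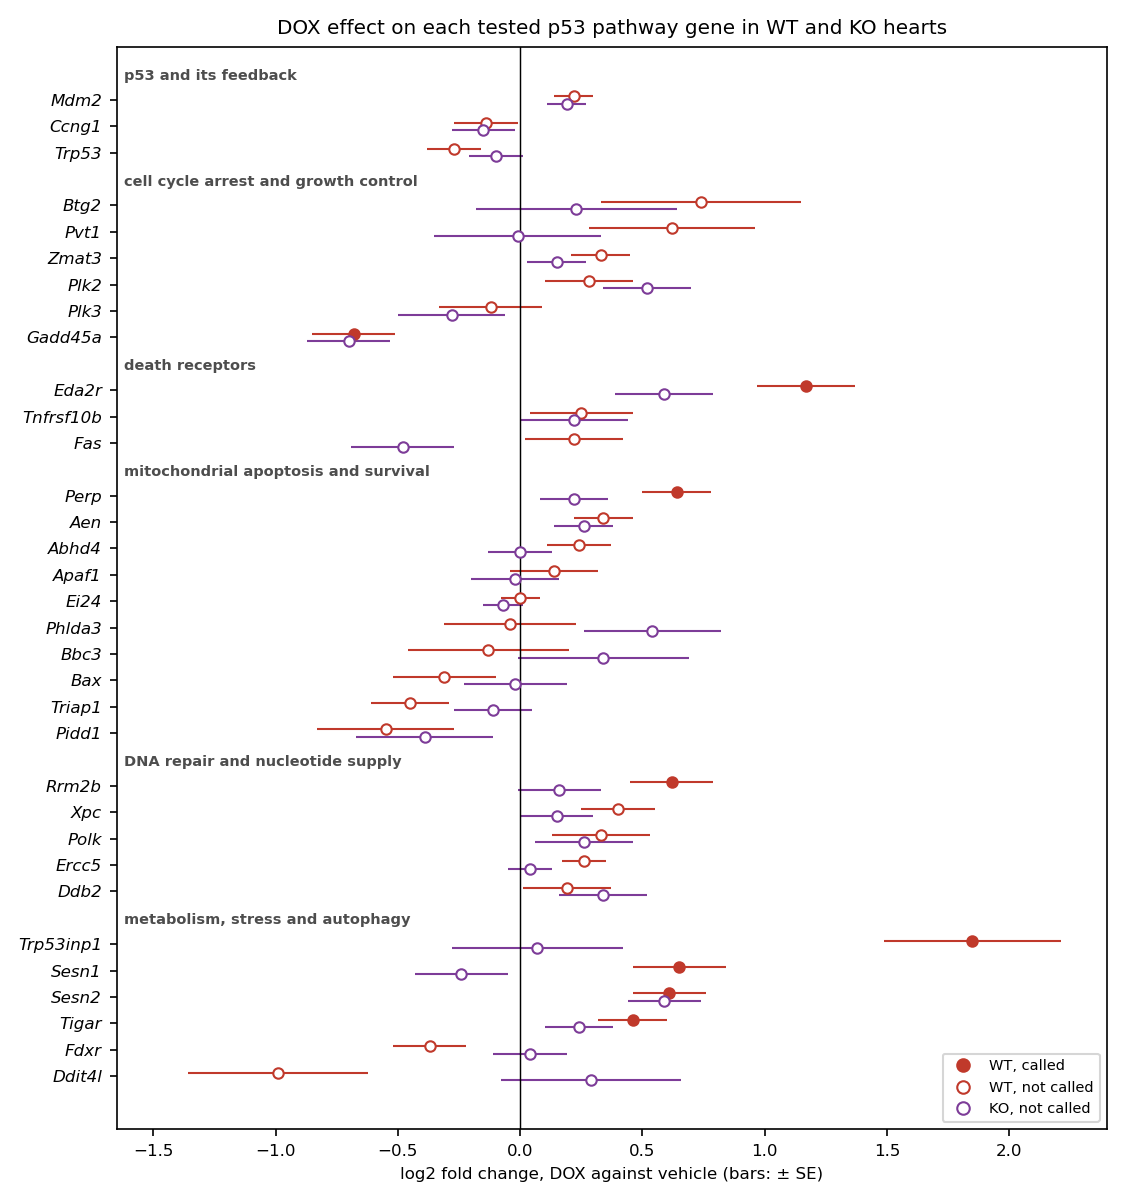
Fitted log2 fold changes of DOX against vehicle for the 33 tested genes by role, with bars of 1 SE, in WT (red) and KO (purple) hearts. Filled points passed an adjusted p below 0.05, which 8 genes did in WT and 0 in KO hearts.

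A call in WT and none in KO does not show that the effects differ, so the difference itself was tested as the interaction of genotype and DOX. None of the 33 genes passed (0 of 33, against 0.21% of all genes), and 4 had an unadjusted p below 0.05, against 16.0% of all genes. These 4 were Trp53inp1 (log2 -1.78, SE 0.50, unadjusted p = 0.00386, adjusted p = 0.162), Sesn1 (log2 -0.89, SE 0.26, adjusted p = 0.184), Ddit4l (log2 1.27, SE 0.52, adjusted p = 0.277) and Fas (log2 -0.69, SE 0.29, adjusted p = 0.28). DESeq2 called 1 of the genes, limma-voom 4, and the fit without a filter 3. The shares of all genes called in these fits are given below under processing. For limma-voom the share among these genes was no larger than that among all genes. Gadd45a and Sesn2 had interactions of -0.02 (SE 0.24) and -0.03 (SE 0.21). The interaction of Eda2r was -0.58 (SE 0.28, adjusted p = 0.323) and that of Perp was -0.41 (SE 0.20, adjusted p = 0.326). The 7 genes called higher in WT all had an interaction below 0. WT vehicle and WT DOX hearts enter both the call and the interaction, so that direction is no separate result.

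Because no interaction passed, DOX was also averaged over the genotypes, a contrast added after the values were seen. It gave 4 genes higher and 1 lower, 12.1% and 3.03% of the 33, against 2.58% and 2.60% of all genes. Those higher were Eda2r (log2 0.88, SE 0.14, adjusted p = 0.0159), Sesn2 (log2 0.60, SE 0.11, adjusted p = 0.0228), Perp (log2 0.43, SE 0.10, adjusted p = 0.0402) and Trp53inp1 (log2 0.96, SE 0.25, adjusted p = 0.0487). Gadd45a was lower (log2 -0.69, SE 0.12, adjusted p = 0.0228). All 6 DOX hearts lay above all 6 vehicle hearts for Eda2r, Mdm2, Perp and Sesn2 (12.1%, against 1.56% of all genes). They lay below them for Gadd45a (3.03%, against 1.17%). Mdm2 read 41.8 to 50 CPM in the vehicle hearts and 50.4 to 58.5 CPM in the DOX hearts, with a log2 fold change of 0.20 (SE 0.06, adjusted p = 0.0611). For Trp53inp1 the KO groups overlapped.

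The averaged count of 5, with 5.17% of all genes called, became 9 without WT vehicle mouse 1 (17.9% of all genes) and also without WT DOX mouse 21 (15.7%). It became 3 without KO DOX mouse 18 (0.928%) or WT vehicle mouse 2 (1.17%), and 2 without KO vehicle mouse veh_3394 (0.446%) or veh_3395 (0.225%) or KO DOX mouse 20 (0.477%). It became 1 without WT DOX mouse 22 (0.3%) or 24 (0.286%), KO vehicle mouse veh_3393 (0.226%) or KO DOX mouse 19 (0.293%). It was 0 without WT vehicle mouse 3 (0.179%), or without the 2 libraries high in atrial transcripts together (0.108%). Some titles carry a suffix 1, in 1 of 3 WT vehicle, 2 of 3 WT DOX, 2 of 3 KO vehicle and all 3 KO DOX libraries, and what it marks is not stated. With the suffix as a covariate only Eda2r stayed called (adjusted p = 0.0361), with 0.251% of all genes called, and Sesn2, Perp, Trp53inp1 and Gadd45a had adjusted p of 0.0695, 0.12, 0.148 and 0.0675. Without TMM scaling the count was 9, with 7.49% of all genes called, while the share of higher genes among all calls moved from 49.8% to 77.0%.

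**Figure D4:**
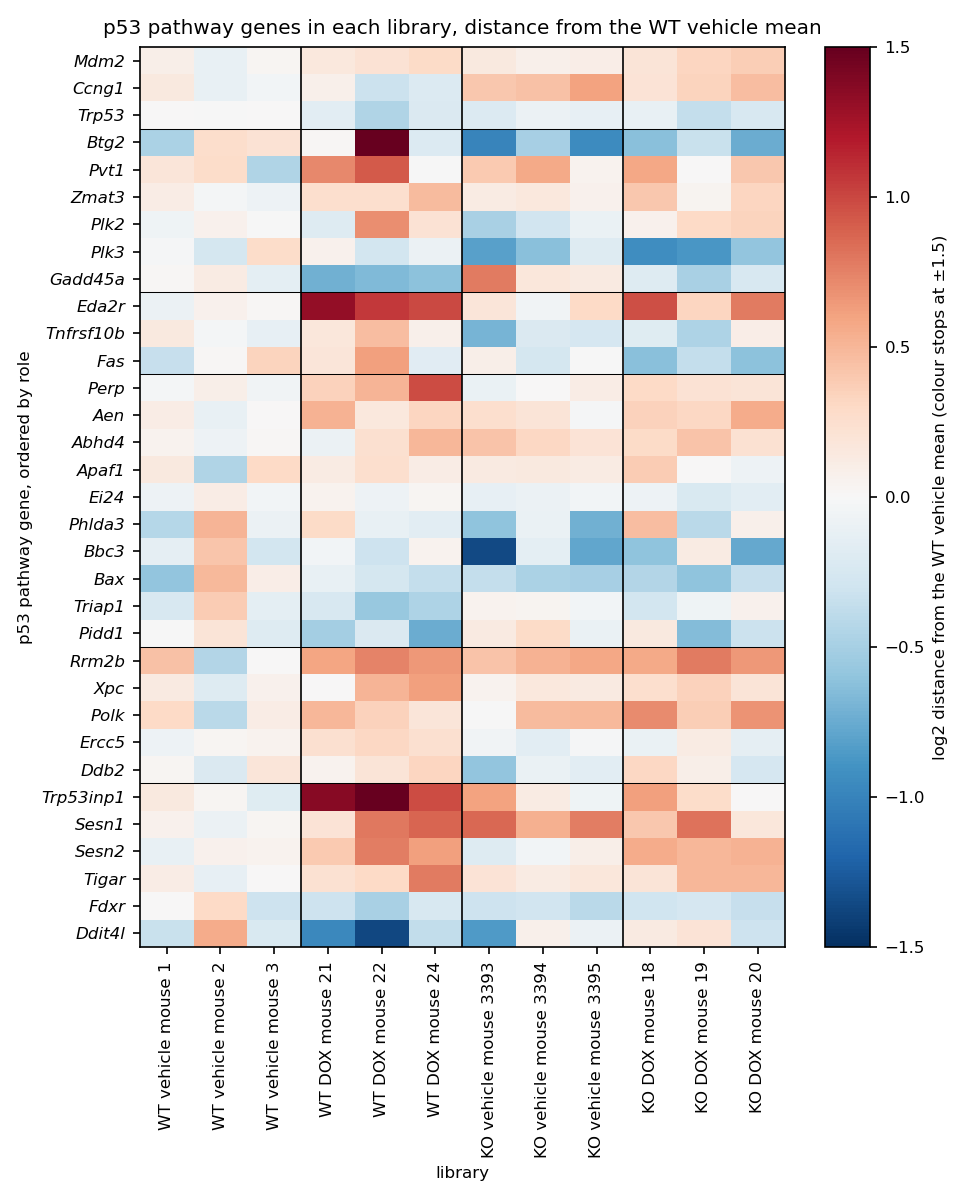
Distance of each library from the WT vehicle mean for the tested genes, on the log2 scale, with genes in rows and libraries in columns. Trp53inp1 and Btg2 are high in WT DOX mouse 22, where they read 74.6 and 169 CPM, and Gadd45a is low in all DOX hearts.

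The median distance of the genes from the WT vehicle mean gives each library 1 value. It was 0.01, 0.03 and 0.00 (log2) in WT vehicle hearts and 0.13, 0.25 and 0.11 in WT DOX hearts. It was 0.05, 0.04 and -0.01 in KO vehicle hearts and 0.19, 0.12 and 0.07 in KO DOX hearts. WT DOX mouse 22 was the highest, and that library also had the highest neutrophil markers, 38.3 CPM in sum. WT DOX mouse 24, with 29.5 CPM of these markers, was at 0.11, and WT DOX mouse 21, with 9.56 CPM, was at 0.13. Between replicates the SD of this median was 0.0525 (log2). The same median over all genes was 0.05 in KO DOX mouse 18, 0.03 in KO vehicle mouse veh_3394 and -0.01 to 0.01 in the other libraries. The part of neutrophils in the result was not tested.

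KO and WT hearts under vehicle gave no call among the 33 genes (0 of 33, against 2.88% of all genes). At an unadjusted p below 0.05 there were 9, against 26% of all genes. DESeq2 called 2 and limma-voom 10, where limma-voom called 35.1% of all genes. The share for DESeq2 is given below under processing. The smallest adjusted p values were those of Sesn1 (log2 0.72, SE 0.19, adjusted p = 0.0552) and Ccng1 (log2 0.48, SE 0.13, adjusted p = 0.0566). Groups did not overlap for 5 genes with KO higher (15.2%, against 16.5% of all genes) and 4 with KO lower (12.1%, against 14.8%), shares near those of all genes. Those higher were Abhd4, Ccng1, Gadd45a, Sesn1 and Tigar, and those lower were Btg2, Plk2, Tnfrsf10b and Trp53. The median log2 difference was 0.01, against 0.02 over all genes. The count was 4 without WT vehicle mouse 1 (17.7% of all genes called) and 2 without WT DOX mouse 21 (4.88%), and 0 without any other single library. Endothelial markers summed to 662 to 755 CPM in KO and 974 to 1080 CPM in WT vehicle hearts, and the part of this shift in the differences was not tested.

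KO and WT hearts under DOX gave no call either (0 of 33, against 0.42% of all genes). At an unadjusted p below 0.05 there were 10, against 15.5% of all genes. DESeq2 called 3 and limma-voom 5, and their shares of all genes are given below under processing. Trp53inp1 came closest, at 30.8, 74.6 and 23.5 CPM in WT and 18.2, 14.4 and 11.9 CPM in KO hearts (log2 -1.53, SE 0.35, adjusted p = 0.0829). Groups did not overlap for 8 genes with KO lower (24.2%, against 9.75% of all genes) and 3 with KO higher (9.09%, against 9.86%). Those lower were Btg2, Eda2r, Ei24, Ercc5, Fas, Perp, Plk3 and Trp53inp1, and those higher were Ccng1, Ddit4l and Gadd45a. Fas read 23.7, 32.1 and 18.6 CPM in WT and 13.5, 16.4 and 13.6 CPM in KO DOX hearts (log2 -0.77, SE 0.21, adjusted p = 0.115). Btg2 had a log2 difference of -1.34 (SE 0.41, adjusted p = 0.164). The count was 4 without WT DOX mouse 21 (4.84% of all genes called) and 1 without WT DOX mouse 24 (0.313%), and 0 without any other single library. WT DOX hearts had 9.56 to 38.3 CPM of neutrophil markers and KO DOX hearts 5.23 to 6.24 CPM, and the part of these cells in the difference was not tested.

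Averaged over the treatments, a contrast added after the values were seen, 2 genes differed between genotypes (6.06% of the 33, against 4.59% of all genes). Ccng1 was higher in KO hearts. It read 819, 686 and 718 CPM in WT vehicle, 781, 591 and 641 in WT DOX, 975, 1000 and 1130 in KO vehicle and 849, 931 and 1020 in KO DOX hearts. All 6 KO hearts lay above all 6 WT hearts (log2 0.48, SE 0.09, adjusted p = 0.0185), and Ccng1 was the 1 gene of the 33 with that order (3.03%, against 1.65% of all genes). The difference was 0.48 under vehicle and 0.48 under DOX. Plk3, a stress-activated polo-like kinase, was lower in KO hearts (log2 -0.64, SE 0.15, adjusted p = 0.0381). It read 3.74, 3.14 and 4.60 CPM in WT vehicle, 3.95, 3.09 and 3.54 in WT DOX, 2.09, 2.41 and 3.29 in KO vehicle and 1.93, 2.01 and 2.47 in KO DOX hearts, and only KO vehicle mouse veh_3395 overlapped with WT. Btg2 had -1.08 (SE 0.29, adjusted p = 0.0538).

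The call on Ccng1 was lost without WT vehicle mouse 3 (adjusted p = 0.061), KO vehicle mouse veh_3395 (adjusted p = 0.0592) or KO DOX mouse 20 (adjusted p = 0.0646). That on Plk3 was lost without any 1 of 10 libraries, and both were lost without the 2 libraries high in atrial transcripts (adjusted p = 0.0572 and 0.137). Against WT hearts, Cdkn1a was lower in KO hearts under vehicle (log2 -1.36, adjusted p = 0.0447) and under DOX (log2 -2.28, adjusted p = 0.0155).

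**Figure D5:**
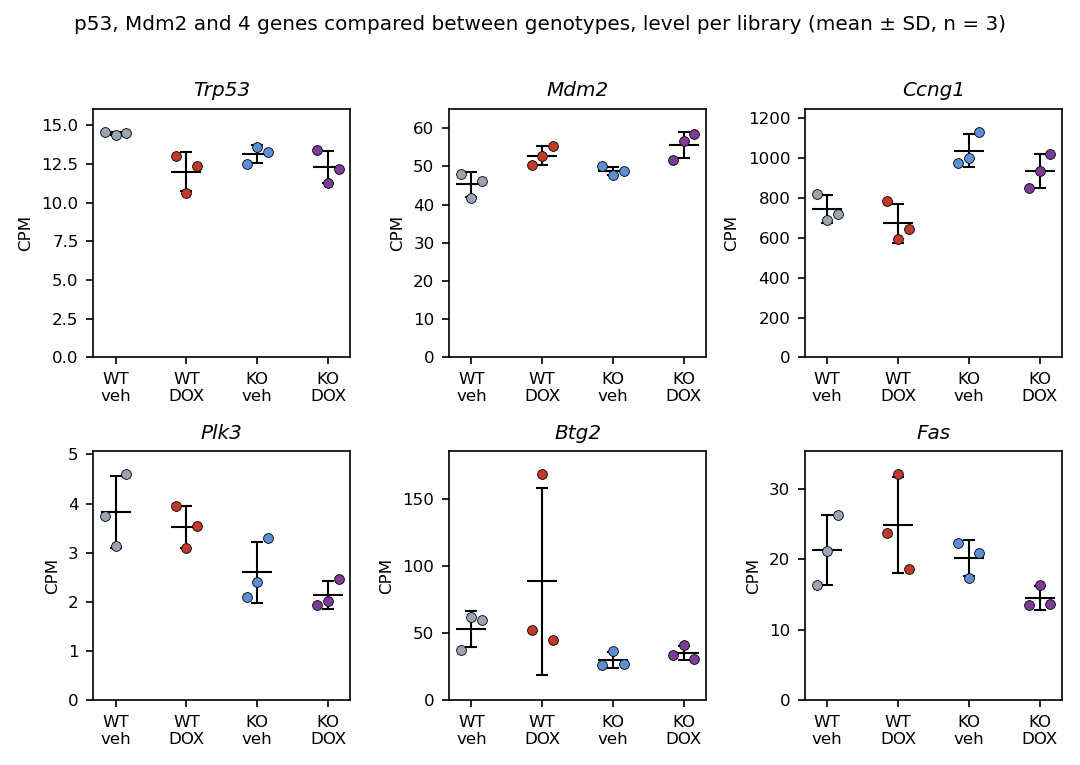
Levels in CPM of p53, Mdm2 and 4 genes compared between genotypes, with 1 point per library and the mean ± SD of each group (n = 3). For Ccng1 the KO hearts (849 to 1130 CPM) all lie above the WT hearts (591 to 819 CPM).

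Other lists of the pathway were read in the same fits. They too were chosen with earlier results of these data known, so their shares are descriptions only. Their counts without single libraries are not given. Of 16 tested p53 regulators and damage sensors, 6 rose with DOX in WT hearts (37.5%, against 9.39% of all genes) and 1 fell (6.25%, against 9.2%), with a median log2 fold change of 0.26. Hipk2, a kinase that phosphorylates p53, rose (log2 2.00, adjusted p = 0.0121). Usp7, the deubiquitinase of Mdm2 and p53, rose (log2 0.42, adjusted p = 0.0288), as did the deacetylase Sirt1 (log2 0.70, adjusted p = 0.0328). The WT vehicle and WT DOX hearts overlapped for Sirt1 and for some of the other regulators that rose. Chek2, a checkpoint kinase upstream of p53, fell (log2 -1.33, adjusted p = 0.0101). Hipk2 averaged 8.44 ± 5.63 CPM in WT vehicle, 33.3 ± 10.3 in WT DOX, 34.1 ± 7.32 in KO vehicle and 43.8 ± 2.43 in KO DOX hearts (SD, n = 3). It was higher in KO than in WT hearts under vehicle (log2 2.03, adjusted p = 0.021).

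Of 19 further p53 targets outside the 34 genes, 2 rose (10.5%, near the 9.39% of all genes) and 0 fell with DOX in WT hearts, with a median of 0.02. They were Ephx1, an epoxide hydrolase (log2 1.1, adjusted p = 0.00533), and Igfbp3, which binds insulin-like growth factors (log2 1.17, adjusted p = 0.0143). Of 19 BCL2 family and apoptosome genes, 0 rose and 1 fell (5.26%, against 9.2% of all genes). It was Diablo, which relieves caspases of their inhibitors (log2 -0.57, adjusted p = 0.0313). The median of that list was -0.25. Of 12 tested cell cycle genes that p21 is known to hold down, 0 rose and 6 fell (50%, against 9.2% of all genes), with a median of -1.07. Among them were Mki67 (log2 -2.57, adjusted p = 0.00887), Top2a (log2 -2.42, adjusted p = 0.0165), Cdk1 (log2 -2.31, adjusted p = 0.021) and Ccna2 (log2 -1.89, adjusted p = 0.0224). Between KO and WT hearts under vehicle, these genes had log2 differences of -1, -0.59, -1.43 and -1.07, and Cdkn1a had -1.36. Under DOX they had 0.48, 0.36, 0.73 and 0.25, and Cdkn1a had -2.28. Of these genes only Cdkn1a was called between genotypes. The part of Cdkn1a in the cell cycle genes was not tested. In KO hearts, edgeR's quasi-likelihood test called 0 genes of each of these 4 lists for DOX. At an unadjusted p below 0.05 there were 2 regulators, 3 further targets, 1 BCL2 family or apoptosome gene and 2 cell cycle genes, against 5.35% of all genes. DESeq2 called 1 further target and limma-voom called 0 in all 4 lists.

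Some of the counts could hold reads of a neighbour. In GENCODE M21 on GRCm38, exons of Tigar, Gadd45a, Rrm2b, Ei24, Ddb2, Plk3 and Pvt1 overlap those of a gene on the opposite strand, and exons of Bax and Pvt1 overlap those of another gene on the same strand. The sources used here do not give the strand setting of the authors' counting, so the share of reads from those neighbours is uncertain. Eda2r (chromosome X, 97333840 to 97377216), Trp53inp1 (chromosome 4, 11156431 to 11174379), Perp (chromosome 10, 18845020 to 18857073), Sesn1 (chromosome 10, 41809935 to 41908424), Sesn2 (chromosome 4, 132492032 to 132510501), Mdm2 (chromosome 10, 117688875 to 117710758) and Ccng1 (chromosome 11, 40748552 to 40755311) have no such overlap. Counts are given per gene symbol, so single exons or transcripts of a gene are not told apart.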

How the data were processed

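For each of the 12 heart libraries the authors deposited 1 file of raw read counts by gene symbol, in whole numbers. Per the labels' protocols, the libraries came from a stranded mRNA kit, and per the submitters' processing notes the tools were featureCounts (Subread 1.6.4), the aligner STAR 2.7.0f and fastp 0.20.0. Which build, gene annotation and strand setting were used is not given in the sources used here.

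Counts were analysed in R 4.3.3 with edgeR 4.0.16. Low genes were removed by filterByExpr with the group as its design, and libraries were scaled by TMM. All 12 libraries entered 1 model with a mean for every group, so the groups share 1 estimate of the spread. Comparisons were tested by quasi-likelihood F tests, with p-values adjusted by Benjamini-Hochberg over all 14757 genes and a threshold of 0.05. Standard errors were worked out as the log2 fold change over the root of F. The biological coefficient of variation was 17.5%. Titles give each library its own animal number but say no more of its source, so p-values measure the spread between these libraries. No 2 libraries of a group agreed within sampling noise (chi-square per gene 7.74 to 149 within groups and 13 to 217 between groups).

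CPM used TMM-scaled totals, which ran from 23846398 to 32921876 counts before scaling. Levels per kb used exon lengths of GENCODE M21 (GRCm38), matched by symbol for 98.3% of 55453 symbols. The log2 distances from the WT vehicle mean used an offset of 0.125 CPM. Promoters were from RefSeq (GRCm38.p6). The fit was also run on simulated counts drawn with the spread estimated from these libraries, with an outcome not given here. No outlying library was simulated, so that run does not bear on the dependence of the calls on single libraries. All 34 genes could be named, with Cdkn1a, Pde10a and at most 4 called genes with the smallest p of each other list. The genes and lists were chosen with earlier results of these data known. Alternatives were DESeq2 size factors, no TMM, no filter, a minimum of 1 CPM in 3 libraries, limma-voom (limma 3.58.1) with quality weights, DESeq2 1.42.0, only the groups compared, the title suffix as a covariate, and leaving out libraries. Contrasts averaged over genotypes or treatments, and fits that drop KO DOX mouse 18 together with KO vehicle mouse veh_3394, were added after seeing the data.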

Additional observations from a re-analysis of the deposited data

How the results depend on the processing

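Values below are counts of the p53 pathway genes called, with the share of all genes called in the same fit in parentheses, or their median log2 fold change. For DOX in WT hearts (8 called, 18.6%), limma-voom called 15 (37.8%) and the fit of the 2 groups alone 0 (0.141%), and the median of 0.24 was 0.29 without TMM scaling. Counts for DOX in WT hearts with the titles' suffix as covariate, without a filter and by DESeq2 are not given here. For DOX in KO hearts (0 called, 0.0136%), the fit without a filter called 2 (1.04%) and DESeq2 1 (0.213%), and the median of 0.15 was 0.06 with the titles' suffix as covariate, then 0.08 when KO DOX mouse 18 and KO vehicle mouse veh_3394 were left out. For KO against WT under vehicle (0, 2.88%), there was 1 call without TMM scaling (2.87%), 5 without a filter (7.06%), 2 by DESeq2 (5.6%), 10 by limma-voom (35.1%) and 1 with only the groups compared (1.57%). Under DOX (0, 0.42%), there were 4 without a filter (3.9%), 3 by DESeq2 (1.54%) and 5 by limma-voom (6.71%), and the median of -0.07 was -0.13 by limma-voom and -0.14 without that pair of libraries. For the interaction (0, 0.21%), there were 3 without a filter (3.7%), 1 by DESeq2 (1.23%) and 4 by limma-voom (13.9%). For DOX averaged over genotypes (5, 5.17%), there were 9 without TMM scaling (7.49%), 10 without a filter (8.1%), 10 by DESeq2 (6.76%), 13 by limma-voom (28.6%), 1 with the suffix covariate (0.251%) and 0 without the pair of libraries (0.108%). For KO averaged over treatments (2, 4.59%), there were 7 without a filter (6.51%), 4 by DESeq2 (4.99%), 11 by limma-voom (23.1%), 1 with the suffix covariate (1.73%) and 0 without the pair (0.659%). The cause of these shifts was not tested. The fit without a filter and DESeq2 tested 29571 genes.

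Leaving out each library in turn gave 2 to 13 calls for DOX in WT hearts (median 0.16 to 0.29) and 0 to 0 for DOX in KO hearts (0.06 to 0.15). It gave 0 to 9 for DOX averaged (0.16 to 0.22), 0 to 1 for the interaction (-0.17 to -0.04), 0 to 4 for KO against WT under DOX (-0.15 to -0.05), 0 to 4 under vehicle (-0.06 to 0.05) and 0 to 7 for KO averaged (-0.08 to -0.03). Where a group kept 2 libraries, its spread was taken from all groups together. No called gene changed direction under any setting run. No paired analysis was possible because the titles share no replicate numbers between the groups. For DOX in WT hearts the widest errors were those of Btg2 (SE 0.41), Ddit4l (0.37), Trp53inp1 (0.36) and Pvt1 (0.34), and the cause was not tested. Pmaip1, with 3 to 14 counts per library, was too low to test at this depth.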

Other observations

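The transcript that changed least among the 33 tested p53 pathway genes was Ei24, which read 60.1 to 75.8 CPM in the 12 libraries, a ratio of 1.26 between the highest and the lowest. Trp53inp1 and Btg2 had the widest ratios, 7.15 and 6.48, and in both the highest value came from WT DOX mouse 22. Within groups, the median SD of the tested genes was 0.229 on the log2 scale, from 0.0724 for Ei24 to 0.587 for Btg2.

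Gdf15, a secreted stress cytokine and a p53 target outside the 34 genes, averaged 1.09 ± 0.317 CPM in WT vehicle, 2.56 ± 1.54 in WT DOX, 0.546 ± 0.214 in KO vehicle and 0.757 ± 0.236 in KO DOX hearts (SD, n = 3). Averaged over the treatments it was lower in KO hearts by edgeR's quasi-likelihood test (log2 -1.37, adjusted p = 0.0394), as was Ptp4a3, a phosphatase that p53 induces (log2 -0.51, adjusted p = 0.018). Ptp4a3 averaged 356 ± 37.8 CPM in WT vehicle, 386 ± 73.4 in WT DOX, 286 ± 16.9 in KO vehicle and 238 ± 16.6 in KO DOX hearts (SD, n = 3).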
